A study of Homo sapiens with 4 samples.

Results

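RNA of RCC4 cells, an established human clear cell renal cell carcinoma (ccRCC) line, was compared between 2 experiments that started from independent lentiviral infections. Membership was decided by the replicate number in the labels alone. The replicate 1 libraries form experiment 1 and the replicate 2 libraries form experiment 2, so that all 4 of the 4 libraries of the series take part, 2 on each side. Each experiment holds 1 library of cells with a scrambled hairpin (shCtrl) and 1 library of cells with a hairpin against PML (shPML, the hairpin shPML#1 of the study). Every library, the controls included, came from cells that carried a lentiviral, doxycycline-inducible hairpin and had received doxycycline at 100 ng/ml for 96 h. The comparison asks which genes differed between the experiments whatever the hairpin, and for which genes the effect of the PML hairpin differed in size or sign. With 1 library per hairpin and experiment, the infection, the culture, the library preparation and the sequencing of an experiment cannot be told apart, and a p-value measures only the spread between these 4 libraries. The submitters noted later that 2 libraries had carried each other's label, and the labels used here are those after the correction.

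The 4 libraries held between 27781193 and 69870617 counted reads, and both libraries of experiment 1 were deeper than both of experiment 2. Of 59050 genes in the count table, 16516 passed edgeR's filter on low counts and were tested. Levels are given in counts per 1000000 of the TMM-scaled library size (CPM), and wherever 4 levels or a pair of levels follow each other, shCtrl comes before shPML. The difference between the experiments is the log2 fold change of experiment 2 over experiment 1 (log2 difference), fitted with the hairpin as a block, and it is given with its standard error (SE). A gene was called higher or lower when the Benjamini-Hochberg adjusted p of edgeR's quasi-likelihood test was under 0.05 and the log2 difference was beyond 0.5. The fit left 1 residual degree of freedom.

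The renal tubule markers PAX8, PAX2, LHX1 and CDH6 were detected in all 4 libraries, with PAX8, a nephron transcription factor, at 307 and 302 CPM in experiment 1 and 413 and 427 CPM in experiment 2. The fibroblast markers DCN, LUM and DPT were at 0 in all 4 libraries. COL1A1 (9.19 to 16.3 CPM), PDGFRB (2.40 to 9.53 CPM) and THY1 (1.72 to 2.04 CPM) were detected in all 4. The 10 fibroblast and 10 endothelial markers summed to between 13.5 and 27.6 CPM and between 3.01 and 11.4 CPM. Each experiment also held RNA that the other lacked. The shPML library of experiment 2 held 182 CPM of 10 leukocyte markers, against between 0.349 and 1.42 CPM in the other 3 libraries, and both libraries of experiment 1 held low levels of genes of the liver. Results that these RNAs touch are marked where they are given. In bulk RNA, fewer cells of a type and less RNA per cell cannot be told apart.

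PML is the scaffold of PML nuclear bodies, which gather and modify other proteins, and both PML itself and many of its partners are induced by interferon. Interferons act through STAT factors on the interferon-stimulated response element, and cells sense viral nucleic acid, including that of a lentiviral vector, upstream of the same genes. Serum, growth factors and stress act within minutes on immediate early genes such as FOS, JUN and EGR1, whose products make up activator protein 1 (AP-1) and related factors. The TGF-beta pathway signals through SMAD proteins to matrix genes and to its own inhibitors. The transcripts of immediate early genes are short-lived, and the state of the cultures at harvest was not tested.

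Short windows from the promoters of 4 interferon-stimulated genes and 1 immediate early gene, whose levels are described below, are printed here so that the elements of the 2 groups can be seen. Promoters of 300 bases (250 before the start and 50 after it) came from RefSeq on build GRCh38.p14 and were searched on both strands for GAAANNGAAA, which reads TTTCNNTTTC on the other strand, the core of the interferon-stimulated response element. Overlapping matches were allowed. Each line is 30 bases on the strand of the gene, and capitals mark the match.
IFIT1, chr10:89392497-89392526, plus strand, match beginning 116 bases before the start: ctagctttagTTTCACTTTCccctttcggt
IFI44L, chr1:78620274-78620303, plus strand, match beginning 164 bases before the start: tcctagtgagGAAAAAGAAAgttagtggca
IFI6, chr1:27672329-27672358, minus strand, match beginning 156 bases before the start: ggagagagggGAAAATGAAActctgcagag
MX1, chr21:41420559-41420588, plus strand, match beginning at base 11 after the start: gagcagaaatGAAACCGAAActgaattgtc
EGR1, chr5:138465386-138465415, plus strand, here with a CArG box, the site of serum response factor, in capitals 83 bases before the start: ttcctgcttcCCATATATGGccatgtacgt
The element was in 30 of 47 interferon-stimulated genes with a promoter (63.8%), in 996 of 27305 promoters overall (3.65%) and in 0 of 31 immediate early genes. A CArG box was in 351 promoters overall (1.29%), in 1 of the 31 immediate early genes and in 2 of the 47 interferon-stimulated genes. A match describes letters in the window and is not evidence of binding.

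PML, the targeted gene, was at 93.1 and 54.9 CPM in experiment 1 and 136 and 87.6 CPM in experiment 2. It was lower in shPML within each experiment, with a log2 ratio of shPML to shCtrl of -0.76 in experiment 1 and -0.63 in experiment 2. PML was also higher in experiment 2 in both hairpins (log2 difference 0.61, SE 0.108, edgeR adjusted p = 1.09e-05), and the shPML library of experiment 2, at 87.6 CPM, lay close to the shCtrl library of experiment 1, at 93.1 CPM. With offsets for the GC content and length of genes (below), the difference of PML between the experiments was 0.37, short of the fold threshold.

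Between the experiments, 1475 genes were higher (8.93% of those tested) and 749 lower (4.53%) in experiment 2, which together is 13.5% of the tested genes. These shares are the background for the counts of called genes in the lists below. The direction was the same within both hairpins for 1451 of the higher and 746 of the lower genes, and 1091 and 538 differed by more than 0.5 within each hairpin. Both libraries of experiment 2 lay beyond both of experiment 1 for 1270 of the higher and 662 of the lower genes. Such a separation was seen in 20.2% of all tested genes upwards and in 21.4% downwards. Of the variance of log2 levels around the mean of each tested gene, the experiments held 44.9%, the hairpins 41.8% and the remainder 13.3%. That remainder holds the interaction of hairpin and experiment together with noise. Of the 2224 genes called between the experiments, 512 (23.02%) were also called between the hairpins, against 19.1% of all tested genes.

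**Figure D1:**
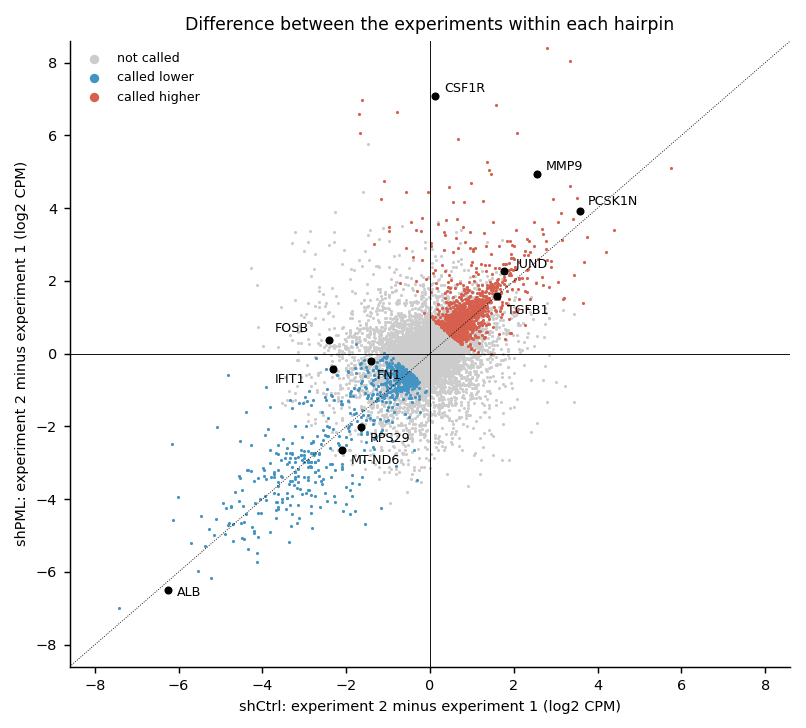
Log2 difference of experiment 2 minus experiment 1 (log2 CPM, prior count of 2) within shCtrl on the x axis and within shPML on the y axis, 1 point per tested gene, coloured by the call, with named genes in black and the diagonal dotted. PCSK1N (3.58 and 3.93) and MT-ND6 (-2.10 and -2.65) lie near the diagonal, and CSF1R (0.13 and 7.09) differs in shPML alone.

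The gene with the smallest p among those higher in experiment 2 was PCSK1N, which encodes a neuroendocrine inhibitor of proprotein convertase 1. It was at 3.36 and 4.42 CPM in experiment 1 and 40.8 and 68 CPM in experiment 2, and both experiment 2 libraries were far above both of experiment 1 (log2 difference 3.78, SE 0.145, edgeR adjusted p = 1.07e-29). CCDC85B, TPGS1, TMEM160 and PPDPF were among the genes of next smallest p, with log2 differences of 2.95, 3.35, 2.84 and 1.90. PPDPF was the most abundant of them, at 95.7 and 80.2 CPM in experiment 1 and 324 and 329 CPM in experiment 2. All 5 genes are rich in G and C, with between 67.3% (PPDPF) and 74.2% (PCSK1N) of their exonic bases, and each stayed higher once GC content and length entered the fit, at smaller sizes of 1.97, 1.96, 1.56, 1.41 and 1.08. IL1B, LAPTM5 and MMP9 had p-values between those of TPGS1 and TMEM160, and ENG and CSF1R were also among the largest differences. IL1B, CSF1R, LAPTM5 (0.0739 and 0.46 CPM in experiment 1 and 0.306 and 57.6 CPM in experiment 2) and ENG (0.0369 and 0.628 CPM in experiment 1 and 0.167 and 22.1 CPM in experiment 2) were high in the shPML library of experiment 2 alone, whereas MMP9 differed within both hairpins (2.54 in shCtrl and 4.94 in shPML).

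The difference between the experiments moved with the base composition of the genes. The genes called higher had a median exonic GC content of 61.9%, those called lower 45.8% and all tested genes 48.3%. In the decile of genes richest in GC the median log2 difference was 0.61, and 776 of its 1652 genes (47.0%) were called higher, whereas in the 5 deciles below a GC content of 48.3% the medians lay between -0.17 and 0.01. The decile of the shortest genes, with at most 957 exonic bases, had a median of -0.23. The rise with GC content was seen within both hairpins, with medians in the top decile of 0.50 in shCtrl and 0.73 in shPML, and the median hairpin ratio of the top decile was -0.01 in experiment 1 and 0.20 in experiment 2. A fit with offsets per library for exonic GC content and length, chosen after this relation was seen, called 773 genes higher (4.68%) and 532 lower (3.22%). Of the 1475 and 749 genes, 591 and 398 were called in the same direction with these offsets, and 10 of the higher genes were called lower. Values with offsets are given beside main results below, and what makes the composition of the libraries differ was not tested. Between chromosomes, the medians were 0.16 over 1203 genes of chromosome 19 (median GC content 57.4%), 0.12 on chromosome 16 and -0.21 over the 20 genes of the mitochondrial genome. Every other chromosome lay between -0.09 and 0.08. With the offsets, chromosomes 19 and 16 were at -0.01 and -0.02, and the mitochondrial genome at 0.24.

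The JUN family subunits of AP-1 were higher in experiment 2, while FOS was not called (log2 difference 0.18) and FOSB was called lower (-0.84). JUND, a JUN family subunit that is present in resting cells too, was at 42.7 and 44.9 CPM in experiment 1 and 146 and 215 CPM in experiment 2, so that both experiment 2 libraries were more than 3 times those of experiment 1 (log2 difference 2.02, SE 0.114, edgeR adjusted p = 4.33e-22, and 0.72 with the GC and length offsets). JUNB was at 59.2 and 98.1 CPM in experiment 1 and 180.0 and 387 CPM in experiment 2 (log2 difference 1.79, with offsets 1.10). JUN, the main partner of FOS, was at 135 and 124 CPM in experiment 1 and 277 and 276 CPM in experiment 2 (log2 difference 1.09, with offsets 0.96). These 3 subunits changed in both hairpins and their experiments did not overlap. EGR1, an early zinc finger factor whose promoter window is printed above, was at 14.9 and 24 CPM in experiment 1 and 19.8 and 54.4 CPM in experiment 2, called higher (0.81) but with the shCtrl library of experiment 2 under the shPML library of experiment 1. Of 41 immediate early genes and feedback inhibitors of ERK signalling, 39 were tested. Of these, 13 were higher and 1 lower, against 8.93% and 4.53% of all tested genes. The median log2 difference was 0.28, against -0.02 over all tested genes. The median was 0.06 in shCtrl and 0.50 in shPML, the offsets gave 14 higher and 1 lower, and DESeq2 called 10 higher and 0 lower (20 and 3 at an unadjusted p under 0.05 by edgeR). The shPML library of experiment 2 also held the leukocyte RNA, and the called member EREG was high there alone (13.9 CPM, at most 0.6 CPM elsewhere). The part of that RNA in the shPML median was not tested. The members called higher also included IER2, IER3 and IER5, early response genes (0.98, 0.76 and 0.55, with offsets 0.52, 0.71 and 0.60), KLF2, a factor raised by fluid flow (2.04, from 1.4 and 1.21 to 4.47 and 6.44 CPM), and the phosphatases DUSP4 (0.72) and DUSP6 (1.94, with 9.31 CPM in shPML of experiment 2 and at most 1.3 CPM elsewhere). FOSB, the single member called lower by edgeR, was not called by DESeq2 (adjusted p = 0.726) and is described with the hairpin ratios.

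Genes of the TGF-beta pathway were higher without exception among those called. The ligand TGFB1 was at 117 and 129 CPM in experiment 1 and 353 and 388 CPM in experiment 2, close to 3-fold more in experiment 2 in either hairpin (log2 difference 1.59, SE 0.100, edgeR adjusted p = 4.62e-20, with offsets 0.96). Its hairpin ratio was the same in both experiments (0.14 and 0.14). ID1, an inhibitor of differentiation and a direct SMAD target, was at 45.5 and 16.8 CPM in experiment 1 and 117 and 40.2 CPM in experiment 2, lower with shPML in each experiment and higher in experiment 2 in each hairpin (1.31, with offsets 1.29). Of 28 genes, 25 were tested. By edgeR 8 of them were higher and 0 lower (8.93% and 4.53% of all tested genes). At an unadjusted p under 0.05 these were 13 and 0. DESeq2 called 7 higher and 0 lower, the offsets left 7 and 0, and the median was 0.41, or 0.16 with offsets. The other 6 were JUNB, the inhibitory SMAD6 (1.36), the corepressor SKI (1.19), LTBP3, which binds latent TGF-beta (0.79, with offsets -0.22 and not called), PMEPA1 (0.64) and ID3 (0.57). The target TGFBI was not called, at 1751 and 2409.9 CPM in experiment 1 and 2253 and 2094 CPM in experiment 2 (0.08), nor were the receptors TGFBR1 (0.06) and TGFBR2 (-0.16).

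Stress and signalling genes gave smaller counts. Over all tested genes, 8.93% were higher and 4.53% lower. HSPB1, a small heat shock protein, was at 436 and 417 CPM in experiment 1 and 1165 and 1196 CPM in experiment 2, with the experiments far apart (log2 difference 1.47, with offsets 0.98), and HSPA1B was called higher too (0.85), but 24 heat shock genes held 4 higher and 1 lower (HSPE1, a mitochondrial co-chaperonin, -0.83, with offsets -0.40 and not called). CEBPB, an acute-phase transcription factor, was at 15.1 and 26 CPM in experiment 1 and 40.2 and 82.1 CPM in experiment 2 (1.54, with offsets 0.67). GDF15, a stress hormone and p53 target, was at 196 and 207 CPM in experiment 1 and 336 and 631 CPM in experiment 2 (1.20, with offsets 0.81), and GADD45A, another p53 target, at 61.1 and 64.4 CPM in experiment 1 and 105 and 111 CPM in experiment 2 (0.78). The 45 p53 targets tested held 4 higher and 4 lower genes with a median of -0.06. Their share of higher genes was near the 8.93% of all tested genes. EGLN1, the prolyl hydroxylase that marks hypoxia-inducible factor for VHL, was at 10.7 and 12.6 CPM in experiment 1 and 26 and 37.9 CPM in experiment 2, higher in both hairpins by about as much with offsets as without (1.44, with offsets 1.56). Of 35 hypoxia-inducible factor targets tested, 5 were higher and 1 lower, with a median of 0.17. The ccRCC marker NDUFA4L2 was among the higher (0.66, with offsets 0.32). The 67 G2/M genes tested had a median of -0.17, with 0 higher and 3 lower by edgeR (PTTG1, CDC25C and CKS1B), 5 and 26 at an unadjusted p under 0.05, and 0 and 1 by DESeq2. With offsets 2 of them were higher and 1 lower. The renal tubule list had 4 higher and 1 lower of 19 tested, among them PAX2, a nephron factor (27.8 and 31.6 CPM in experiment 1 and 55.3 and 69.6 CPM in experiment 2, log2 difference 1.07, with offsets 0.43 and not called), and IRX3 (1.34, with offsets 0.68).

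Cytoskeleton and matrix genes moved in part. The shares over all tested genes were 8.93% higher and 4.53% lower. Of 32 tested targets of serum response factor and genes of the actin cytoskeleton, 7 were higher and 0 lower by edgeR (15 and 3 at an unadjusted p under 0.05, 6 and 0 by DESeq2), with a median of 0.22, and 3 were higher with offsets. ACTB, cytoplasmic beta-actin, was at 7750.4 and 5748 CPM in experiment 1 and 12115 and 9113 CPM in experiment 2 (0.65, with offsets 0.65), and its hairpin ratio was -0.43 and -0.41. Of 43 collagens and modifying enzymes, 6 were higher and 1 lower, with a median of 0.32, which became 1 higher and 3 lower with a median of 0.05 with offsets. COL18A1, COL6A1, COL6A2 and COL5A1 were among the 6, all with at least 63.5% GC, and none of these 4 was called with offsets. The heparan sulfate proteoglycan AGRN, at 565 and 470.4 CPM in experiment 1 and 1085 and 1183 CPM in experiment 2, was called higher (1.14) and was at -0.07 with offsets. Fibronectin (FN1) went the other way, at 6843 and 4711 CPM in experiment 1 and 2583 and 4098 CPM in experiment 2. It was called lower in experiment 2 (-0.80, SE 0.114, edgeR adjusted p = 7.75e-08, with offsets -0.63), but not by DESeq2 (adjusted p = 0.435), and the difference came from shCtrl (-1.41) more than from shPML (-0.20).

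Genes for cytosolic ribosomal proteins were the largest group of lower genes among the lists. All 78 were tested, and 36 were lower and 2 higher in experiment 2, against 4.53% lower and 8.93% higher of all tested genes. The median log2 difference was -0.48 (-0.39 in shCtrl and -0.58 in shPML). With offsets, 19 were lower and 1 higher, and the median was -0.27. RPS29, a small ribosomal subunit protein, was at 203 and 276 CPM in experiment 1 and 64.3 and 68.1 CPM in experiment 2, with no overlap between the experiments (log2 difference -1.84, SE 0.108, edgeR adjusted p = 2.25e-21, with offsets -1.75). RPL41, the shortest ribosomal protein, was at 90.3 and 88.5 CPM in experiment 1 and 26.6 and 28.8 CPM in experiment 2 (-1.69). RPL39 was at 38 and 31.4 CPM in experiment 1 and 17.7 and 13.3 CPM in experiment 2 (-1.17). RPL13, of the large subunit, was among the higher members (0.89). Ribosomal protein genes have near-identical processed pseudogenes, so their counts depend on how shared reads were assigned. Among 74 tested nuclear genes of oxidative phosphorylation, 20 were lower and 4 higher, with a median of -0.22 and with 7 and 4 under the offsets. ATP5F1E, a subunit of ATP synthase, was at 232 and 304 CPM in experiment 1 and 134 and 142 CPM in experiment 2 (-0.95, with offsets -0.93), and COX7A2 was at 97.5 and 107 CPM in experiment 1 and 54.1 and 52.4 CPM in experiment 2 (-0.94). Exonic length counts all annotated exons, with 8211 bases for RPS29 and 5081 for ATP5F1E, against a median of 3267. The offsets thus treated these 2 as long genes, and the length of their transcripts did not enter. S100A6, a calcium-binding protein, was at 725 and 1045 CPM in experiment 1 and 329.8 and 457 CPM in experiment 2 (-1.17, with offsets -1.34), and RN7SL1, the RNA of the signal recognition particle, at 17.5 and 23.2 CPM in experiment 1 and 4.33 and 4.69 CPM in experiment 2 (-2.16). Among genes of between 40% and 60% GC, the median log2 difference was -0.53 over the 174 genes with up to 300 exonic bases and -0.06 over the 8627 with more than 2000.

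Of the 13 mRNAs of the mitochondrial genome, 3 were lower and 0 higher by edgeR and by DESeq2 (7 and 1 at an unadjusted p under 0.05), with a median of -0.20. With offsets 1 was lower and 2 were higher, and the median turned to 0.23. MT-ND6 was at 87.1 and 72.6 CPM in experiment 1 and 20.3 and 11.6 CPM in experiment 2, the largest fall among them (log2 difference -2.36, SE 0.132, edgeR adjusted p = 3.12e-22, with offsets -1.82). MT-ND6 is the only one of the 13 encoded on the light strand, opposite to the abundant heavy-strand transcripts. The others called were MT-ATP8 (119.6 and 108 CPM in experiment 1 and 57.9 and 49.2 CPM in experiment 2, log2 difference -1.09, with offsets -0.47) and MT-ND4L (741 and 617 CPM in experiment 1 and 381 and 268 CPM in experiment 2, log2 difference -1.08, with offsets -0.45), each of which shares bases with its neighbour on the same strand. Neither was called with offsets. MT-ND5 and MT-CYB, at -0.35 and -0.33, were short of the fold threshold.

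Fewer of the genes that lie opposite an abundant gene held reads in experiment 2. A set was made of 189 genes with at least 80% of their exonic bases under a gene of the other strand whose mean level was at least 50 CPM. Thinned to the depth of the shallowest library, 41 and 39 of them were at 0 in the shCtrl and shPML libraries of experiment 1, against 114 and 108 in experiment 2. At the same depth, 57 and 58 had 10 counts or more in experiment 1, and 17 and 15 in experiment 2. The summed levels of the 189 genes differed less, at 132 and 127 CPM in experiment 1 and 65.9 and 70.05 CPM in experiment 2, and at the median a gene stood at 0.127% and 0.128% of the level of its opposite gene in experiment 1 and at 0% in both libraries of experiment 2. AC069234.2 lies wholly within exons of the other strand of MLEC, on chromosome 12 from 120697124 to 120699541, and was at 7.24 and 5.33 CPM in experiment 1 and at 0 counts in both libraries of experiment 2. It was at least 65.3-fold lower in experiment 2, with 3 counts in each library as the floor. MLEC itself was at 663 and 469.6 CPM in experiment 1 and 629.9 and 411 CPM in experiment 2 and was not called (-0.13). Among genes with a mean of at least 5 CPM, 3 of the lower genes of largest difference overlapped an abundant gene of the other strand in part. AL138963.3 (25.3 and 39.8 CPM in experiment 1 and 1.33 and 1.31 CPM in experiment 2, log2 difference -4.57) has 47.3% of its exonic bases opposite TPT1. AC011603.2 (-3.69) has 23.02% opposite TUBA1B. BEST1 (21.8 and 9.32 CPM in experiment 1 and 1.39 and 1.93 CPM in experiment 2, log2 difference -3.14) has 18.3% opposite FTH1. All 3 are under the 80% of the set above. Of 354 genes lower by more than 1, 87 (24.6%) had at least 50% of their exonic bases under a gene of the other strand, against 2.37% of all tested genes. Genes at 0 in both libraries of experiment 2, such as AC069234.2 and THRIL, passed the filter on low counts through experiment 1 alone. Only a lower call was open to them, so that this share is given as a description. The kit marks strand, the strand setting of the counting is not given in the sources used here, and reads of a gene and its opposite partner cannot be told apart without it.

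Other genes were present in 1 experiment only. With 3 counts or fewer in both libraries of an experiment and more than 3 in both of the other, 1211 genes were found in experiment 1 only and 79 in experiment 2 only. After thinning to equal depth these were 567 and 186, and 120 of the 567 (21.2%) had at least 50% of their exonic bases under a gene of the other strand, against 2.87% of all genes in the table. The 567 were picked by their counts in experiment 1, so that this share is a description. All genes in the table include undetected ones, and the share among the 186 is not given here. Plasma protein genes of the liver were among those of experiment 1. ALB, serum albumin, had 172 and 271 counts in experiment 1 and 0 and 0 in experiment 2, at least 36.2-fold lower with 3 counts in each library as the floor. APOA1, the main protein of high-density lipoprotein, had 99 and 121 counts in experiment 1 and 0 and 1 in experiment 2, and HP, haptoglobin, had 62 and 76 and then 0 and 0. In a list of 26 liver genes, written after the value of ALB had been seen, none was at 0 in either library of experiment 1, and 16 and 15 were at 0 in those of experiment 2, also after thinning. The 22 of them under 1 CPM in experiment 2 summed to 11.9 and 11.6 CPM in experiment 1 and to 0.472 and 0.982 CPM in experiment 2. These 22 were picked by their level in experiment 2, so that their low sum there is a description only. All 26 summed to 488 and 689 CPM in experiment 1 and 329 and 683 CPM in experiment 2, most of it from C3. Members of the list at higher levels in experiment 2 did not all share this pattern. SERPINA1 was at 7.85 and 4.62 CPM in experiment 1 and 15.9 and 20.4 CPM in experiment 2. The complement gene C3 was at 464 and 668 CPM in experiment 1 and 309.7 and 659 CPM in experiment 2. The source of the liver transcripts was not tested.

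Genes of monocytes and macrophages were found almost only in the shPML library of experiment 2. LYZ, lysozyme, was at 0.0739 and 0.0418 CPM in experiment 1 and 0.0278 and 85.4 CPM in experiment 2. CD14, the lipopolysaccharide co-receptor, was at 0.0369 and 0.0418 CPM in experiment 1 and 0.111 and 42.8 CPM in experiment 2. PTPRC, the common leukocyte antigen CD45, was at 0 and 0.0976 CPM in experiment 1 and 0 and 12.6 CPM in experiment 2, and so it stood apart in the same library. CSF1R, the receptor for macrophage colony-stimulating factor, was at 1.09 and 0.153 CPM in experiment 1 and 1.19 and 26.6 CPM in experiment 2. SPI1, the myeloid transcription factor PU.1, was at 0 and 0 CPM in experiment 1 and 0.25 and 14.2 CPM in experiment 2. The cytokine IL1B was at 0 and 0.0837 CPM in experiment 1 and 0.389 and 33 CPM in experiment 2. In each of these 6 genes that library was at least an order of magnitude above the next. In a list of 61 myeloid genes, written after some of these values had been seen, 55 were at 1 CPM or more there, against 9 in each of the other 3 libraries, 57 were highest there, and the sums were 54.4, 137, 57.2 and 1463 CPM. The exceptions were the macrophage genes CD68, C1QB and TREM2, at 0 counts there, and FPR1, at 3.53 CPM there and 4.89 CPM in shCtrl of experiment 2. Only 20 of the 61 were tested and 16 of these were called higher in experiment 2, a count that is given as a description, since the RNA was found in 1 library. The lymphocyte genes CD3E, CD3D and MS4A1 and the granulocyte genes MPO and ELANE were at 0 in all 4 libraries, but NKG7, a gene of natural killer and cytotoxic T cells, had 219 counts in that library (7.96 CPM) and 0 in the other 3. In all, 178 genes were above 2 CPM and more than 8 times every other library in the shPML library of experiment 2, with a summed level of 1921 CPM, and 0 genes met that rule in any other library. Of the 35 of these that were tested, 32 were called higher, so that 1443 higher and 749 lower genes are left without them.

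These values touch several lists. Of 40 tested inflammatory genes, 13 were higher and 0 lower by edgeR (8.93% and 4.53% of all tested genes), with a median of 0.19. At an unadjusted p under 0.05 these were 18 and 3, with offsets 10 and 0, and by DESeq2 5 and 0. IL1B, CCL2 (0.998 and 0.697 CPM in experiment 1 and 1.47 and 13.3 CPM in experiment 2), CXCL16 (0.462 and 0.377 CPM in experiment 1 and 0.194 and 11.1 CPM in experiment 2) and CCL5 (0.905 and 1.66 CPM in experiment 1 and 0.333 and 13.8 CPM in experiment 2) were high in the library with the myeloid RNA alone. CXCL5, a neutrophil chemokine, was at 63.4 and 104 CPM in experiment 1 and 86.6 and 211 CPM in experiment 2 (0.74). IL11, an interleukin 6 family cytokine, was at 12.2 and 4.85 CPM in experiment 1 and 21.9 and 8.44 CPM in experiment 2 (0.82). In the last 2, experiment 2 was above experiment 1 within both hairpins. The integrin ITGAX, the cathepsins CTSK and CTSS, the protease ADAM8 and the EGF receptor ligand EREG were called higher, with between 0.91 (ADAM8) and 3.20 (EREG). Within shCtrl, however, their differences were -0.23, -0.56, -0.98, -0.34 and -0.57. The part of the myeloid RNA in these differences was not tested.

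**Figure D2:**
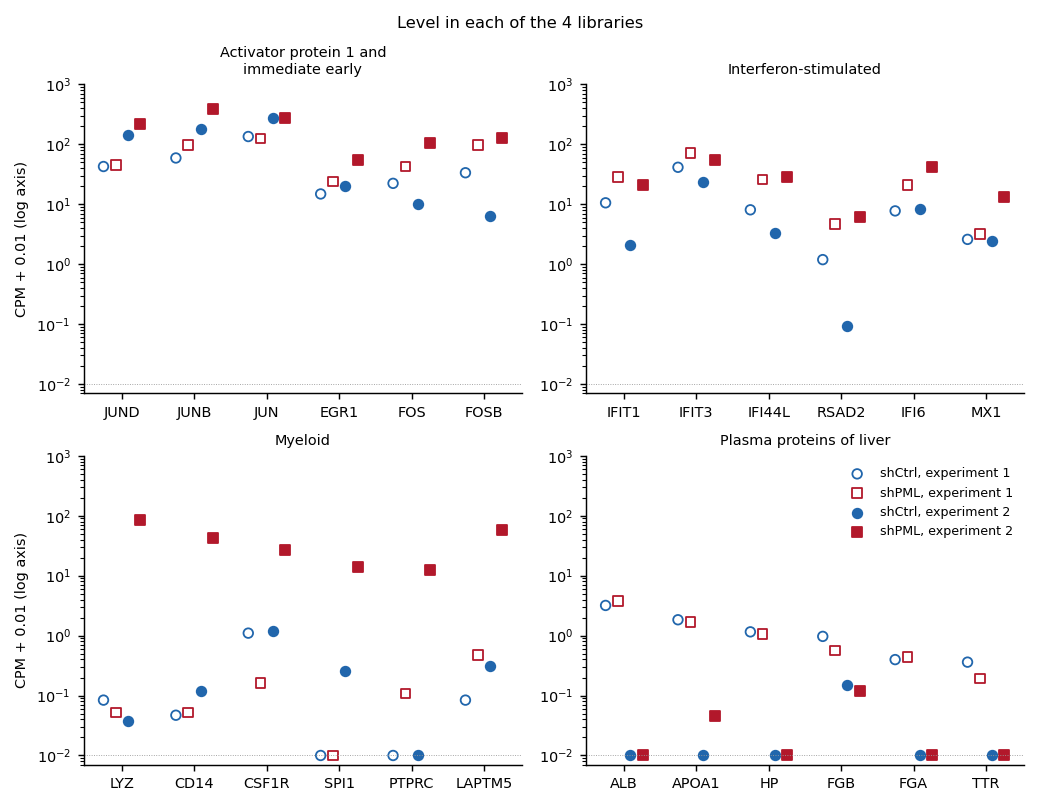
Level of 24 genes in each library (y axis, CPM + 0.01 on a log axis, with the dotted line at 0 CPM) for AP-1 and immediate early, interferon-stimulated, myeloid and liver genes, with shCtrl in blue circles and shPML in red squares, open for experiment 1 and filled for experiment 2. The myeloid genes are high in the filled red square alone (LYZ at 85.4 CPM), and ALB, HP, FGA and TTR are at 0 in both filled symbols.

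The effect of the PML hairpin was compared between the experiments as the log2 CPM ratio of shPML to shCtrl within each, for the 9582 genes with at least 10 CPM in a library of each experiment. With 1 library per hairpin and experiment, the difference of the 2 ratios has no test, and the interval given with it covers counting error only. The ratios lay within 0.5 of each other for 94.6% of the genes. The 445 genes with a ratio beyond 1 in experiment 1 had the same sign in experiment 2, where 362 were beyond 1 too. In experiment 2, 654 genes were beyond 1, of which 653 had the same sign in experiment 1. Effects were often further from 0 in experiment 2. Among 1606 genes with ratios beyond 0.5 and of the same sign in both experiments, 1037 were further from 0 in experiment 2, 402 of the 591 positive and 635 of the 1015 negative ones.

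The ratio of experiment 2 exceeded that of experiment 1 by more than 1 for 28 genes (0.292% of the 9582) and by more than 2 for 7 (0.0731%), and it was below by more than 1 for 1 gene (0.0104%). In 20 of the 28, shCtrl was lower in experiment 2 by more than 0.5, and in 12, shPML was higher by more than 0.5. FOSB, a FOS family subunit of AP-1, was at 33.6 and 98.4 CPM in experiment 1 and 6.25 and 128 CPM in experiment 2. Its ratio went from 1.55 to 4.35, a difference of 2.80 (95% counting interval 2.59 to 3.01), with shCtrl of experiment 2 the lowest of the 4 libraries and shPML of experiment 2 the highest. FOS itself was at 22.3 and 42.4 CPM in experiment 1 and 10.1 and 105 CPM in experiment 2, with ratios of 0.92 and 3.38. JUN and JUNB, their partners, had ratios that stayed near each other (-0.12 and -0.01 for JUN, 0.73 and 1.10 for JUNB). SERPINB2, the plasminogen activator inhibitor PAI-2, was at 3.99 and 14.1 CPM in experiment 1 and 0.944 and 18.7 CPM in experiment 2 (1.81 and 4.25). GREB1, an oestrogen-regulated gene, was at 4.93 and 13.8 CPM in experiment 1 and 2.14 and 21.5 CPM in experiment 2 (1.47 and 3.30). Of the 28 genes, 4 are on the myeloid list, namely the integrin ITGB2 (15.4 and 26.8 CPM in experiment 1 and 7.22 and 84.2 CPM in experiment 2), the gelatinase MMP9 (2.73 and 14.6 CPM in experiment 1 and 16.1 and 449 CPM in experiment 2), the acid phosphatase ACP5 (4.51 and 25 CPM in experiment 1 and 1.53 and 43 CPM in experiment 2) and the lectin SIGLEC15 (15.3 and 53.4 CPM in experiment 1 and 15.4 and 172 CPM in experiment 2). Without that list, 4 genes differed by more than 2, and the part of the myeloid RNA in the shPML levels of experiment 2 was not tested for any of the 28. ANGPTL4, a secreted inhibitor of lipoprotein lipase, kept a high ratio in both experiments, with 3.74 and 5.08.

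The gene with a ratio lower by more than 1 was TENM2, a teneurin of cell adhesion, at 19.6 and 5.38 CPM in experiment 1 and 31.5 and 3.64 CPM in experiment 2, with ratios of -1.86 and -3.10 (difference -1.24, 95% counting interval -1.58 to -0.90). Tissue factor (F3) was at 58.9 and 31 CPM in experiment 1 and 122 and 33.2 CPM in experiment 2 and followed with -0.93 and -1.88. LAYN, a hyaluronan receptor, was at 67.3 and 53.5 CPM in experiment 1 and 104 and 44.2 CPM in experiment 2 (-0.33 and -1.23). TSPAN2, a tetraspanin, was at 36.7 and 16.2 CPM in experiment 1 and 66.6 and 16.5 CPM in experiment 2 (-1.18 and -2.01). In these 4 genes shCtrl was higher in experiment 2, by between 0.62 (LAYN) and 1.05 (F3), while shPML differed by -0.56, 0.10, -0.27 and 0.03. LAMA5, a laminin chain, had a smaller positive ratio in experiment 2 (1.73 and 0.86), as its level was 11.4 and 38 CPM in experiment 1 and 46 and 83.4 CPM in experiment 2.

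The hairpin ratios of interferon-stimulated genes were mostly larger in experiment 2. Of 66 genes on the list, 65 were in the table and 59 were tested, and 26 of these were higher in shPML in the fit over both experiments. Their median ratio was 0.40 in experiment 1 and 0.72 in experiment 2, and 48 of the 59 had the larger ratio in experiment 2, against 49.4% of all tested genes. Other lists did the same, with 31 of 39 immediate early genes, 18 of 24 genes of Notch, WNT and hedgehog signalling and 15 of 19 of antigen presentation. The median exonic GC contents of these 3 lists were 52.2%, 55.7% and 54.9%, against 48.3% over all tested genes. Ratios of genes rich in GC were also larger in experiment 2 (above), and the part of GC content in these counts was not tested. Of genes with ratios above 0.5 in both experiments, 402 of 591 had the larger ratio in experiment 2. The ratio was above 0 for 48 interferon-stimulated genes in experiment 1 and for 52 in experiment 2. Between the experiments, 46 of the 59 had a lower level in shCtrl of experiment 2 (median log2 difference -0.31), and 29 had a lower level in shPML (median 0.00). IFIT1, which binds viral RNA that lacks a host cap, was at 10.6 and 28.2 CPM in experiment 1 and 2.08 and 21.1 CPM in experiment 2, with ratios of 1.41 and 3.31 (difference 1.90, 95% counting interval 1.52 to 2.27). RSAD2, the antiviral enzyme viperin, was at 1.18 and 4.7 CPM in experiment 1 and 0.0833 and 6.15 CPM in experiment 2, with 3 counts in shCtrl of experiment 2. IFI44L was at 8.07 and 26 CPM in experiment 1 and 3.33 and 28.8 CPM in experiment 2. IFIT3 was at 41.4 and 72.2 CPM in experiment 1 and 23.9 and 54.6 CPM in experiment 2. Both had their lowest level in shCtrl of experiment 2. IFI6, a mitochondrial survival protein, had similar levels in both shCtrl libraries and differed in shPML, at 7.74 and 21 CPM in experiment 1 and 8.36 and 42.6 CPM in experiment 2, as did the antiviral GTPase MX1, at 2.59 and 3.21 CPM in experiment 1 and 2.42 and 13.3 CPM in experiment 2. The RNA sensor OAS2 was at 0.776 and 1.17 CPM in experiment 1 and 0 and 6.15 CPM in experiment 2, lowest in shCtrl and highest in shPML of experiment 2. Between the experiments, 6 genes of the list were called higher (GBP2, MX1, IRF7, HELZ2, IFI6 and GBP1) and 3 lower (IFIT1, IFI44 and IFIT3), which is near the background of 8.93% and 4.53%, and the median was -0.13. DESeq2 called 1 higher and 1 lower. IRF7, the inducer of type I interferon, was at 8.09 and 14.3 CPM in experiment 1 and 12.6 and 35.2 CPM in experiment 2 (0.99), and with offsets its difference was 0.00. STAT2, a mediator of the response, was not called, at 92.1 and 108 CPM in experiment 1 and 69.2 and 92.2 CPM in experiment 2 (-0.32). Of 29 tested genes of nucleic acid sensing and lentiviral restriction, 1 was higher, the DNA sensor CGAS, at 29.9 and 19.8 CPM in experiment 1 and 43.4 and 27.6 CPM in experiment 2 (0.51), and 0 lower by edgeR and by DESeq2 (2 and 4 at an unadjusted p under 0.05), with a median of 0.01. Monocytes and macrophages express many interferon-stimulated genes too. The part of the myeloid RNA in the shPML levels of experiment 2 was not tested for this list or for the other lists named with it.

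Ratios of opposite sign were found for 1930 of the 9582 genes (20.1%), of which 28 (0.292%) were beyond 0.25 in both experiments and 1 (0.0104%) beyond 0.5. That gene was FN1, whose ratio was -0.54 in experiment 1 and 0.67 in experiment 2 (difference 1.20, 95% counting interval 1.19 to 1.22), with at least 2583 CPM in every library. It was lower with the PML hairpin in experiment 1 and higher with it in experiment 2, with shCtrl further below its earlier level than shPML. The related matrix gene SPARC kept its sign, with 3.23 and 3.76, as did COL6A2, with 0.64 and 1.01. The next by the smaller of the 2 ratios were ZNF628, KMO, NATD1 and CYTOR, with ratios between 0.35 and 0.43 from 0 on either side. KMO, a kynurenine enzyme, was at 8.06 and 10.3 CPM in experiment 1 and 11.6 and 8.69 CPM in experiment 2, so that the order of the hairpins turned within a narrow range of levels. None of these signs has a replicate within its experiment.

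Across the lists, the median log2 differences ran from -0.48 for ribosomal proteins to 0.41 for TGF-beta targets among lists with at least 5 tested genes, with all tested genes at -0.02. The offsets drew the ribosomal proteins to -0.27, TGF-beta targets to 0.16 and collagens to 0.05, while immediate early genes stayed at 0.27. In shCtrl the interferon-stimulated genes were next to the ribosomal proteins at the low end and in shPML they were near the median of all genes. Glycolysis (2 higher and 1 lower of 24), cholesterol synthesis (2 and 1 of 26), ATF4 targets (4 and 1 of 34) and YAP and TEAD targets (4 and 1 of 26) had medians between -0.03 and 0.20. Of all tested genes, 8.93% were higher and 4.53% lower.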

How the data were processed

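Total RNA of 4 RCC4 cultures was sequenced from stranded, poly(A)-selected libraries. Per the labels, the authors trimmed reads with Trimmomatic 0.39, aligned them to GRCh38 with STAR and counted them per gene with featureCounts 1.6.4. The deposited values used here are these raw counts. The strand setting and the annotation release are not given in the sources used here. Columns without a number were taken as replicate 1, and the replicate number as the infection that both hairpins shared. Deviations of same-numbered libraries from the hairpin means correlated at 0.546 across genes.

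Counts were filtered with edgeR 4.0.16 (filterByExpr, R 4.3.3), scaled by TMM and fitted by edgeR's quasi-likelihood test with hairpin and experiment as terms. Log2 levels used a prior count of 2. On simulated counts for 16516 genes, 154 of 200 changed genes and 4 unchanged genes were called, and 50 of the 200 without the hairpin block. Alternatives were DESeq2 1.42.0, RLE scaling, thinned counts, other filters, prior counts and thresholds, no block, libraries left out, and offsets per library for exonic GC content and length (splines with 5 degrees of freedom), the last chosen after the data were seen. Summaries used Python 3.11.15 with pandas 2.3.3, numpy 2.4.6 and matplotlib 3.10.9. Intervals and floors cover counting error only.

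Genes, gene lists and tests were chosen with earlier results of these data known, and the myeloid and liver lists after values had been seen. The text names PML, in each direction the 8 called genes of smallest p and of largest difference (mean of at least 5 CPM, same direction in both hairpins), up to 4 called members of each list, the 10 genes at each end of the ratio difference, the 10 of opposite sign and up to 6 genes per direction found in 1 experiment only. A few genes that met the rule are not given singly. Other named list members were chosen after their values were seen.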

Additional observations from a re-analysis of the deposited data

Results flagged for a closer look

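The 10 genes with ratios of opposite sign that lay furthest from 0 in both experiments are listed because the PML hairpin moved them in different directions in the 2 experiments. With 1 library per hairpin and experiment, none of these differences was tested. The difference is the log2 ratio of shPML to shCtrl in experiment 2 minus that in experiment 1. FN1 had the largest, at 1.20, from -0.54 to 0.67. The zinc finger genes ZNF628, ZNF841 and TSHZ3 rose by 0.79, 0.76 and 0.68, and NATD1 and PPFIA3 by 0.79 and 0.71. The long non-coding RNA CYTOR, the kynurenine enzyme KMO, the inositol phosphatase IMPA2 and the cilium gene BBIP1 went the other way, with -0.78, -0.77, -0.69 and -0.68. In these 9 genes each ratio was within 0.43 of 0. FN1 was the most abundant of the 10.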

How the results depend on the processing

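The comparison rests on 4 libraries and on the hairpin as a block. Without the hairpin block edgeR called 0 genes higher and 0 lower (1818 had an unadjusted p under 0.05), and with a library also left out between 0 and 7 higher and between 0 and 1 lower, the 7 and 1 without shCtrl replicate 2. DESeq2 with the block called 1113 higher and 341 lower, against 1475 and 749. The GC and length offsets gave 773 higher and 532 lower, and the 3304 genes of the middle quintile of GC content 75 higher and 188 lower. With no fold threshold 2329 and 1584 genes were called, and beyond a log2 difference of 1, 491 and 354. Between the hairpins, the fit with no replicate block called 13 higher and 55 lower, against 1415 and 1735 with the block. Ratios of opposite sign beyond 0.25 numbered 44 after thinning and 18 with offsets, against 28. Ratios lower by more than 1 numbered 2 with offsets, against 1, and those higher by more than 2 numbered 4 without the myeloid list, against 7. With the offsets the sign turned for IRF7 (-0.00323), MVD (-0.198), FASN (-0.0434), SREBF1 (-0.140), PFKL (-0.0977), BBC3 (-0.308), ATP5F1D (-0.195), BOP1 (-0.140), COL18A1 (-0.108), AGRN (-0.0697), PKP3 (-0.113), IDUA (-0.198) and KCNQ1OT1 (0.287). Leaving out a library leaves a difference within 1 hairpin with no test, and these ran from -0.0963 to 2.04 for MX1, from -1.09 to 4.73 for CXCL16, from -0.226 to 3.38 for ITGAX, from -0.564 to 2.89 for CTSK, from -0.978 to 3.36 for CTSS, from -0.336 to 1.9996 for ADAM8, from -0.566 to 4.44 for EREG and from -0.0157 to 1.46 for PDGFRB. Of all named genes with a call, 34 were no longer called by DESeq2, 7 with RLE scaling and 3 after thinning. With the offsets, 43 were no longer called, besides the 13 above whose sign turned, which were not called either. The cause of each change was not tested. The shallower libraries of experiment 2 limit genes of few counts, and an absent gene there is known only to the floor of 3 counts.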
